A study of Mus musculus with 2 samples.

Results

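The genes described here encode 10 secreted ligands of the bone morphogenetic protein (BMP) and growth and differentiation factor (GDF) families, and were set by name as Bmp2, Bmp3, Bmp4, Bmp5, Bmp6, Bmp7, Gdf5, Gdf6, Gdf7 and Gdf10, out of 21887 protein-coding genes. Every deposited peak that overlapped the annotated span of one of them, or the 10 kb on either side, by at least 1 bp was counted for that gene. The peaks mark H3K27me3, trimethylation of histone H3 at lysine 27, as found by chromatin immunoprecipitation with sequencing (ChIP-seq) in whole sciatic nerve. The nerve came from C57/BL6 mice, all male and 8 weeks of age. There was 1 ChIP library, made with an H3K27me3 antibody, and 1 input library, which received no antibody and came from the same chromatin. The labels give no genotype beyond the strain, no treatment and no number of animals. The nerve holds Schwann cells, fibroblasts, vessels, immune cells and axons, and a peak does not tell which of them carried the mark. Without replicates no test was possible, and every interval below covers counting error only.

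BMP and GDF ligands belong to the transforming growth factor beta superfamily. They are secreted as dimers, and as a rule they bind a pair of type I and type II serine/threonine kinase receptors. Many of them, though not all, signal through Smad1, Smad5 and Smad9 together with Smad4. Secreted antagonists such as noggin and gremlin keep many of the ligands from their receptors. H3K27me3 is laid down by Polycomb repressive complex 2 and is typical of developmental genes that a cell keeps silent, often at promoters rich in CpG dinucleotides. In the embryo, BMP signals pattern the dorsal neural tube and act on the neural crest, from which Schwann cells descend.

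H3K27me3 peaks lay at 7 of the 10 ligand genes (70.0%, exact 95% interval 34.8 to 93.3), against 13.7% of all protein-coding genes by the same window. Gdf6, Bmp4 and Gdf7 carried most of the signal, with 213, 127 and 123 reads in their peaks. Gdf10, Bmp2, Gdf5 and Bmp3 had 31, 13, 11 and 11 reads, in peaks that stood close to the lowest value in the list, 10 reads. Bmp5, Bmp6 and Bmp7 had no listed peak. Read numbers were inferred from the authors' score per peak, whose values are whole multiples of a single step. That the step stands for 1 read is an assumption, on which all read numbers and their Poisson intervals rest.

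The promoters of 5 of the 10 genes are in the RefSeq promoter table (GRCm38.p6, the same build as mm10), and they are shown because peaks lay over those of Bmp4, Gdf7 and Gdf10 and not over those of Bmp6 and Bmp5. Each line gives the 250 bases before the annotated start, 5′ to 3′ in the direction of transcription, with every CpG in capitals. Bmp2, Bmp3, Bmp7, Gdf5 and Gdf6 were not matched.
Bmp4 (chr14:46390670-46390919, minus strand): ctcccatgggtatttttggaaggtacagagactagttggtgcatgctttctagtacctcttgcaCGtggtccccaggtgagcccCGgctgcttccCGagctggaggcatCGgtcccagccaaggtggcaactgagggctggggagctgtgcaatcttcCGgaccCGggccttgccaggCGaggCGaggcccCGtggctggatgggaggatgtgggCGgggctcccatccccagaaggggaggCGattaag
Gdf7 (chr12:8301955-8302204, minus strand): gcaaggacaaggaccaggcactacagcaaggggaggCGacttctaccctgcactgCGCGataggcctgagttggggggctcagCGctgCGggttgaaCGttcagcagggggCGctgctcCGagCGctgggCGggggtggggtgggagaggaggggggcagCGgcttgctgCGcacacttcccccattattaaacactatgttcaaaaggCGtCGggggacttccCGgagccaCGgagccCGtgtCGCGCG
Gdf10 (chr14:33923337-33923586, plus strand): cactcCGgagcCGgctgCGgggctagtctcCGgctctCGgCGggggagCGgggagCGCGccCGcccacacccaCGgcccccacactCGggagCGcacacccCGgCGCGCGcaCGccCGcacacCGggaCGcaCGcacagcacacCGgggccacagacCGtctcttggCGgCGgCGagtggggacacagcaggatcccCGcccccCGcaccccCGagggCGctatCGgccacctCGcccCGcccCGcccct
Bmp6 (chr13:38345466-38345715, plus strand): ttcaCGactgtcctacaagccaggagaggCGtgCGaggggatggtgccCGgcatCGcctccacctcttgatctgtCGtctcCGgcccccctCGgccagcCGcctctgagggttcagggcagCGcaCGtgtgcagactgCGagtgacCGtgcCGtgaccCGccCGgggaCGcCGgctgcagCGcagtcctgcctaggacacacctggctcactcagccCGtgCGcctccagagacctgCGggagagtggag
Bmp5 (chr9:75775115-75775364, plus strand): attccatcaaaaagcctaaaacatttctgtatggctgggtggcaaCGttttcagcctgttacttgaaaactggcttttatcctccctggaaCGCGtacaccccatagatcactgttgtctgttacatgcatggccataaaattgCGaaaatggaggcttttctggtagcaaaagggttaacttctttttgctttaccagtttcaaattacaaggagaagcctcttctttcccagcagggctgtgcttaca

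A peak covered bases 2 to 250 of the Bmp4 promoter, bases 1 to 42 of the Gdf7 promoter and bases 1 to 201 of the Gdf10 promoter, counted from the first base printed. The motif counted was CG, which reads the same on both strands and occurred at least once in 92.7% of the 17492 protein-coding promoters in the table. Gdf10 had 35 CpG, more than 96.5% of those promoters held, and Gdf7 had 20. Bmp4 had 11, close to the median of 10 over all promoters. Of the unmarked genes, Bmp6 had 22 CpG and Bmp5 had 4. Among these 5 promoters the CpG number did not order the marked and unmarked ligands, since Bmp6 held more CpG than Bmp4 and Gdf7. Gdf6, the ligand with the most reads, was not matched, and CpG beyond the printed bases were not counted. Any part of CpG number in the mark was not tested.

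Over all listed promoters, 743 (4.25%) had a peak over these 250 bases. The share was 1.15% for promoters with 0 to 4 CpG, the class of Bmp5. It was 5.23% with 5 to 9 CpG, 6.24% with 10 to 19, the class of Bmp4, 5.89% with 20 to 29, the class of Gdf7 and Bmp6, and 5.66% with 30 or more, the class of Gdf10. Few promoters poor in CpG carried the mark, and from 5 CpG upward the exact intervals of the classes overlapped.

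**Figure D1:**
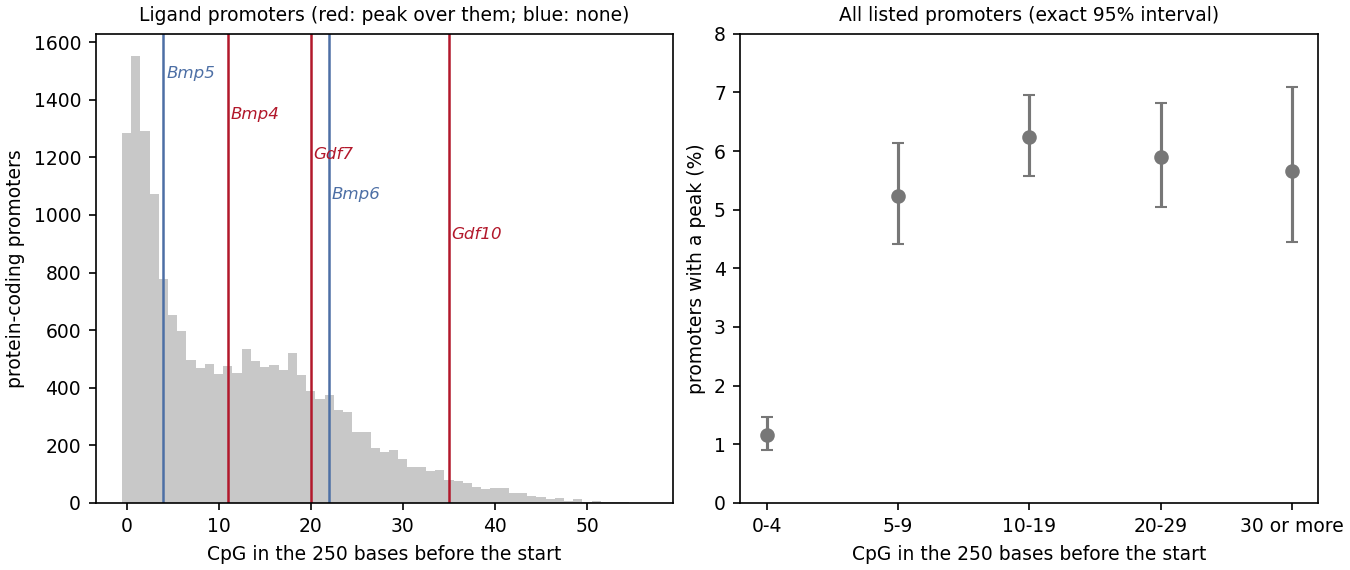
Left, number of CpG in the 250 bases before the start (x axis) against the number of protein-coding promoters (y axis, grey bars), with lines at the 5 matched ligand genes, red where a peak lay over the promoter and blue where none did. Right, percentage of promoters with a peak by CpG class, with exact 95% intervals. Bmp6 (22 CpG, no peak) lies beside Gdf7 (20 CpG, peak), and the class with 0 to 4 CpG stands below the others at 1.15%.

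Gdf5, Gdf6 and Gdf7 form a closely related group of ligands, and all 3 carried peaks, with 347 of the 529 reads counted for the 10 genes (65.6%). Gdf6, a factor needed for joints and for eye development, had the broadest mark. Its 5 peaks held 87, 68, 12, 20 and 26 reads, a sum of 213 (exact 95% Poisson interval 185.4 to 243.6), and covered 53.0% of its span of 18.0 kb (chromosome 4, 9844372 to 9862345). The first and widest, 3824 bp, lay across the gene end with the lower coordinate (9844059 to 9847882), and the second, 3494 bp, lay inside the gene. The mark was thus heaviest over the lower-coordinate side of Gdf6 and broke into narrower peaks of 736 to 996 bp towards its other end. Joined across gaps of up to 5 kb, the 5 peaks made a domain of 15950 bp.

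Gdf7, a roof plate signal that specifies dorsal interneurons of the spinal cord, had 4 peaks of 52, 40, 13 and 18 reads, a sum of 123 (102.2 to 146.8). Peaks covered 78.6% of its 4.04 kb span (chromosome 12, 8297918 to 8301954), the largest share among the 10 genes. A gap lay over the start itself. The nearest peak inside the gene began 302 bp after the start, and the nearest upstream peak ended 209 bp before it. Ldah, which encodes a lipid droplet-associated hydrolase, overlaps Gdf7 by 2894 bp, and the peaks of 52 and 40 reads touched both genes. Counting each peak for its nearest gene alone left Gdf7 with 71 reads in 3 peaks.

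Gdf5, a joint-forming factor whose loss shortens limb bones, had a single peak of 500 bp with 11 reads (5.5 to 19.7), inside the gene and 1542 bp from its upper-coordinate end (chromosome 2, 155943326 to 155943825). The width of 500 bp is the shortest in the list. The 3 related genes therefore differed widely, and the intervals of Gdf6 and Gdf7 lay far above that of Gdf5.

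Bmp2 and Bmp4, the pair of ligands closest to Drosophila decapentaplegic, both carried peaks and differed in extent. Bmp4, which is needed for mesoderm formation and later patterns dorsal and ventral tissues, had 4 peaks of 23, 54, 21 and 29 reads, a sum of 127 (105.9 to 151.1), over 58.4% of its 7.14 kb span (chromosome 14, 46383525 to 46390669). The peak of 21 reads crossed the start site, from 249 bp before it to 599 bp after it, and included nearly all of the promoter printed above. The peak of 54 reads, 2716 bp wide, lay inside the gene between 1362 and 4077 bp after the start and also touched Gm15222, a long non-coding RNA gene within Bmp4. The peak of 29 reads stood apart, 6785 to 8518 bp upstream of the start, and no other annotated gene overlapped it.

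Bmp2, a bone and heart cushion inducer, had 1 peak of 634 bp with 13 reads (6.9 to 22.2), which lay 953 bp inside the lower-coordinate end (chromosome 2, 133553112 to 133553745) and covered 5.90% of the 10.7 kb gene. The intervals of Bmp4 and Bmp2 did not overlap.

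Bmp3 and Gdf10, also called Bmp3b, are the divergent members that can oppose other BMPs. Gdf10 had 3 peaks of 500 bp with 11, 10 and 10 reads, a sum of 31 (21.1 to 44.0). The first lay 549 to 50 bp upstream of the start (chromosome 14, 33923038 to 33923537), over the promoter printed above, and also touched Gm30031, a neighbouring long non-coding RNA gene. The other 2 lay inside the gene, 1159 and 3711 bp after the start. Bmp3 had 1 peak of 634 bp with 11 reads (5.5 to 19.7), which lay 657 bp inside the lower-coordinate end and covered 2.14% of the gene (chromosome 5, 98854415 to 98884053). All 4 peaks of this pair were near the lowest read number listed, so each rests on few reads. For 10 reads the Poisson interval runs between 4.795 and 18.39.

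Bmp5, Bmp6 and Bmp7, a closely related group that includes the short ear gene Bmp5, the iron regulator Bmp6 and the kidney and eye factor Bmp7, had no peak in the span or the 10 kb flanks. The nearest peak to Bmp7 (chromosome 2, 172868012 to 172940321) had 10 reads and ended 55.4 kb below the gene. The nearest to Bmp5 (chromosome 9, 75775365 to 75900316) began 114 kb above the gene, had 19 reads and lay nearest to Hmgcll1. The nearest to Bmp6 (chromosome 13, 38345716 to 38500314) was 187 kb away, had 10 reads and lay nearest to Dsp. These 3 genes were also the longest of the 10, at 125, 155 and 72.3 kb, while the longest marked gene, Bmp3, was 29.6 kb. Over all protein-coding genes the share with a peak was 16.1% at 70 to 160 kb, 12.9% at 20 to 70 kb, 13.4% at 5 to 20 kb and 9.52% up to 5 kb. The part of gene length in the absence of peaks at these 3 genes was not tested. The list holds no peak under 10 reads, so a weaker mark at these 3 genes was not detectable.

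**Figure D2:**
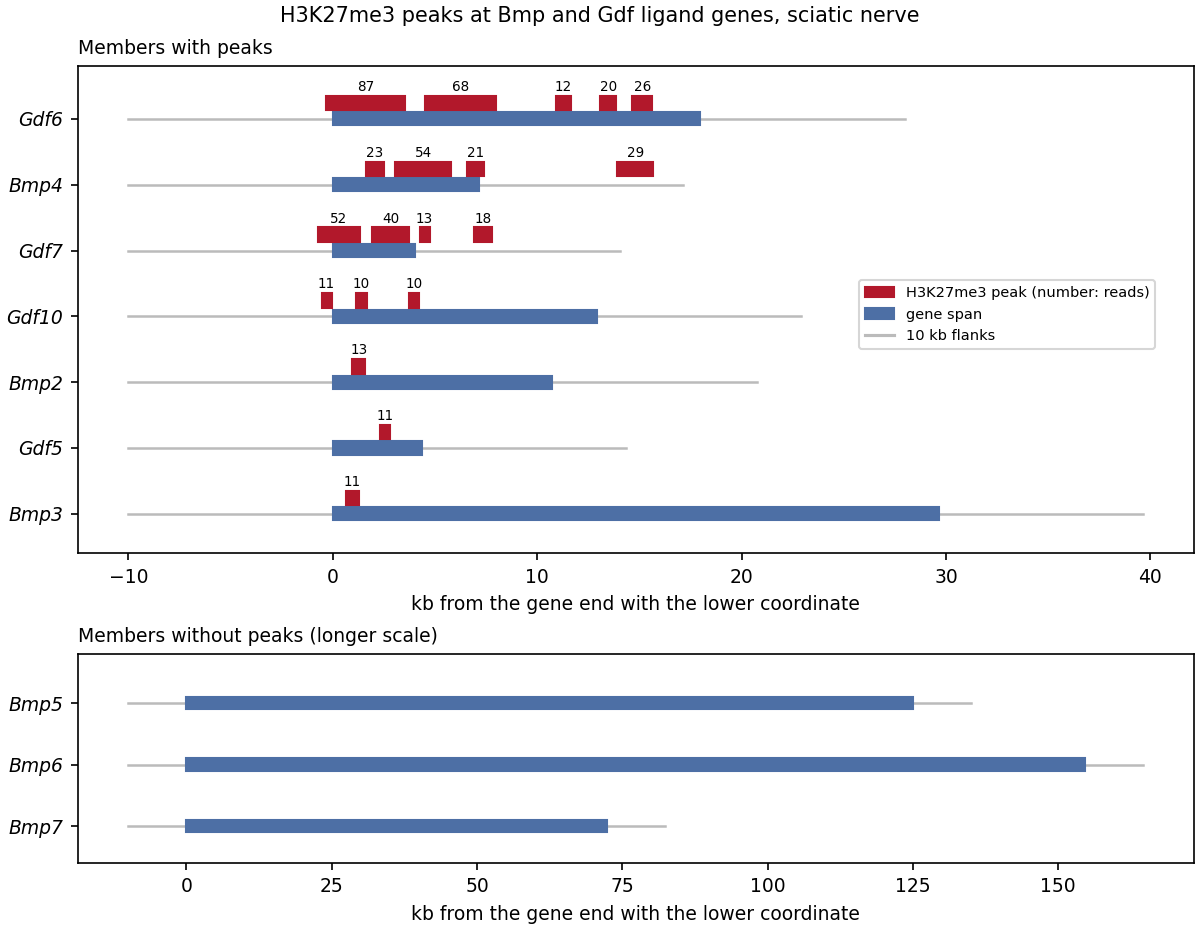
Positions of H3K27me3 peaks (red, with their reads) along each ligand gene (blue) and its 10 kb flanks (grey), in kb from the gene end with the lower coordinate, with genes ordered by reads. Gdf6, Bmp4 and Gdf7 carry 4 or 5 peaks each over much of the gene, Gdf10 has 3 of 500 bp, Bmp2, Gdf5 and Bmp3 have 1 each, and the lower panel shows Bmp5, Bmp6 and Bmp7 without a peak.

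**Figure D3:**
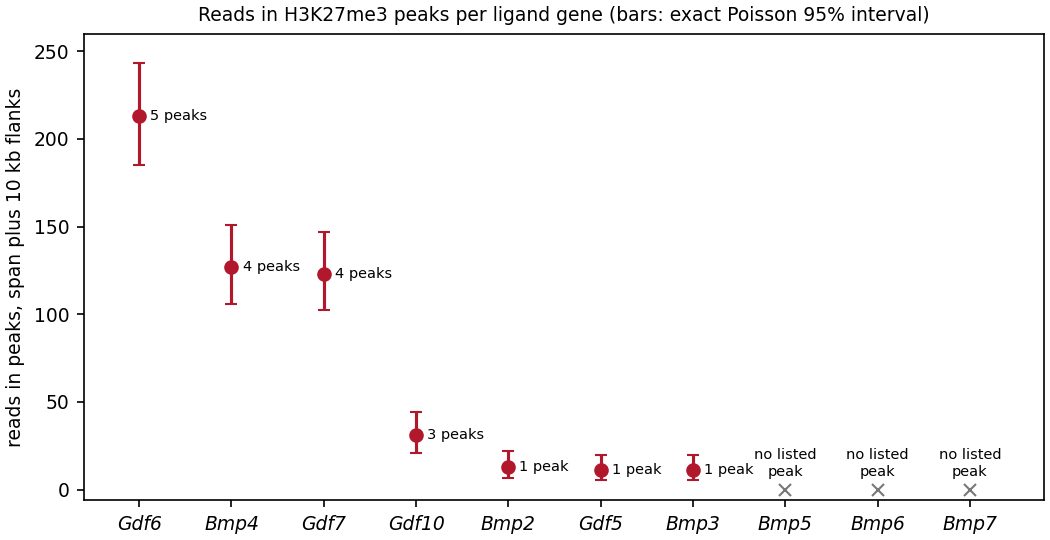
Reads in peaks over the span and 10 kb flanks of each ligand gene (y axis), with exact Poisson 95% intervals and the number of peaks beside each point. Gdf6, Bmp4 and Gdf7 lie at 213, 127 and 123 reads, the other 4 marked genes at 31 or fewer, and crosses mark the 3 genes with no listed peak.

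The marked ligand genes had a median of 31 reads and 3 peaks, against 25 reads and 1 peak over the 2988 protein-coding genes with a peak. The median hides a wide spread: Gdf6, Bmp4 and Gdf7 held 87.5% of the reads, and each had at least 100, which 2.19% of all protein-coding genes reached. With the gene span alone Bmp4 had 98 reads and Gdf7 had 92, so that Gdf6 alone passed 100. Gdf6 had more reads than 92.0% of genes with a peak, Bmp4 more than 87.1% and Gdf7 more than 86.5%. Bmp2 had more than 24.9%, and Gdf5 and Bmp3 more than 14.9%.

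Of the 19 peaks, 12 lay inside a gene, 3 across a gene end and 4 in a flank, and each of the 7 marked genes had at least 1 peak within its span. The peaks had a median width of 849 bp and 20 reads, against 643 bp and 14 reads over all 6018 peaks. Read density differed little, between 16.3 and 26.9 reads per kb with a median of 22.0, against a median of 21.0 over all peaks. Gdf6, Bmp4 and Gdf7 had 4 or 5 peaks each, the widest of 3824, 2716 and 2084 bp, while no peak of the other 4 marked genes exceeded 634 bp. The widest, at Gdf6, was exceeded by 5.05% of all peaks.

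**Figure D4:**
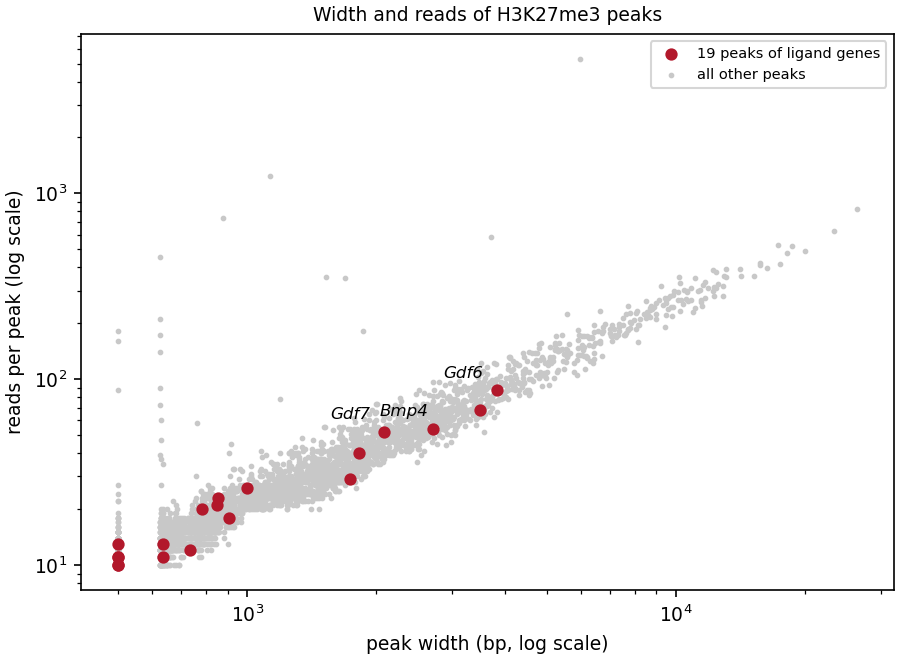
Width (x axis, bp, log scale) and reads (y axis, log scale) of each H3K27me3 peak, with the 19 peaks of ligand genes in red and all others in grey. The red points run along the main band from 500 bp with 10 reads to 3824 bp with 87 reads, at Gdf6.

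The same 7 genes were marked at every flank tried, with the gene span alone and with flanks of 2, 5, 10, 20 and 50 kb. As each had a peak within its span, a wider flank could only add ligands. No unmarked ligand had a peak within 50 kb. The share of all protein-coding genes with a peak was 9.77% with the span alone and 25.5% with 50 kb. The farthest peak kept by the 10 kb limit was the Bmp4 peak at 6785 bp, and the nearest left out was a peak of 12 reads 12.7 kb below Gdf6, which has no other protein-coding gene nearer to it. The count of marked ligands changed with the reads required. With peaks of at least 20 reads, Gdf6, Bmp4 and Gdf7 were the marked ligands, 3 of 10, against 6.77% of all protein-coding genes.

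A peak also lay within 2 kb of the start, or of either end where the promoter table lists no start, at these 7 genes, against 8.11% of all protein-coding genes. With 1 kb it did so at 6, all but Gdf5. The share of all protein-coding genes at 1 kb is not given here, so 8.11% is no background for that count. Only Bmp4, Gdf7 and Gdf10 were hit at a listed start. Bmp2, Gdf5, Gdf6 and Bmp3 were hit at either end, a looser rule, most of all for a gene as short as Gdf5. Listed starts and gene ends may be mixed in other proportions over all genes, so the shares are not strictly alike. The distance to the next peak outside the window differed between loci. That peak lay 2150 kb above Bmp4 and 6910 kb below it, 1270 kb above Gdf7 and 2920 kb below it, and 41.6 kb above Gdf10, nearest to Zfp488. Over the whole list, domains joined across 5 kb were separated by a median of 148 kb.

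Of 80 other genes of the pathway, in 7 lists, 18 had a peak (22.5%, 13.9 to 33.2), against 13.7% of all protein-coding genes. Of 11 other BMP and GDF ligands, Bmp8a and Bmp8b had peaks (18.2%, 2.28 to 51.8), with 67 and 66 reads. They are related neighbours, and how well reads could be told apart between them was not checked. The rest of that list, which includes Gdf2, the neighbour of Gdf10, had none. Of 12 TGF-beta, activin, nodal and related ligand genes, 3 had peaks (25.0%, 5.49 to 57.2). They were Inhbb, which encodes an activin subunit, with 53 reads, Nodal, a gastrulation signal, with 40, and Lefty2, its inhibitor, with 15.

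Receptor and Smad genes had peaks about as often as the 13.7% of all protein-coding genes. Of 17 receptor and co-receptor genes, 3 had a peak (17.6%, 3.8 to 43.4), namely Hjv (hemojuvelin, a co-receptor) with 18 reads, Acvr1c with 14 and Bmpr1b with 10. Bmpr1a, Bmpr2 and Acvr1, the main BMP receptors, had none. Of 8 Smad genes, Smad5 alone had a peak (12.5%, 0.316 to 52.7), with 10 reads in its flank. None of 6 genes for proteases that process or activate these proteins, among them Furin and Bmp1, had a peak, which with so few genes allows a share of up to 50.0%.

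Among 15 secreted antagonists, 4 had peaks (26.7%, 7.79 to 55.1), an interval that includes the 13.7% of all protein-coding genes. Sost (sclerostin) led with 81 reads over 61.1% of its span, then Nbl1 with 45 reads, all in its flank, and Grem1 with 35. Nog and Chrd, which encode noggin and chordin, had none. Of 11 target genes, 5 had peaks (45.5%, 16.7 to 76.6). The 3 homeobox genes among them exceeded every ligand: Msx1 with 336 reads, Dlx5 with 289 and Msx2 with 285. Msx1 was covered over 95.6% of its span. Id1, Id2, Id3 and Id4, the common readouts of BMP signalling, had no peak.

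The list as a whole held 6018 peaks over 7.61 Mb. A map of this mark does not measure expression, so the tissue could not be checked against markers directly. The Schwann cell genes Mbp and Sox10, a myelin protein gene and a lineage factor, had 1 peak each, with 11 reads, as many as Gdf5 and Bmp3 had.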

How the data were processed

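H3K27me3 was mapped in 1 ChIP library with 1 input library. Per the submitters' processing notes, Bowtie and build mm10 were used. The program that called the peaks, its threshold and any role of the input were not given in the sources used here, and no input values were analysed here. The deposited list gives each peak a score, whose meaning the authors do not state in these sources. Whole multiples of 2.5735 matched 99.83% of the scores within 0.05, all 19 used here among them. Scores were divided by 2.5735 on the assumption that this step is 1 read. The lowest score, 25.7, would then correspond to 10 reads, a relative counting error of 31.6%.

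Genes and promoters came from RefSeq tables of GRCm38.p6. The gene table gives no strand, so starts came from the promoter table. Overlaps were computed in Python 3.11.15 with pandas 2.3.3 and numpy 2.4.6 and checked on simulated peaks. Shares carry exact Clopper-Pearson and reads exact Poisson 95% intervals from scipy 1.17.1. Without replicates no test was run. The ligand genes and the lists were chosen with earlier results of these data known. In each other pathway list the 3 genes with the most reads were named, and unmarked genes were named after their values were seen. Flanks, score and read minimums, overlap and peak assignment were varied. A part of the marker gene results is not reported here.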

Additional observations from a re-analysis of the deposited data

How the results depend on the processing

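As each marked ligand had a peak within its span, a wider flank could only add ligands. Changing the flank, requiring 50% of a peak inside the window or giving each peak to its nearest gene left the count of marked ligands at 7. It was 3 when peaks under the median score were dropped and 3 with peaks of at least 20 reads, since the peaks of Gdf10, Bmp2, Gdf5 and Bmp3 hold fewer. With peaks at or above the median score, 3 ligands passed the 2 kb start rule. Bmp4 and Gdf7 did so at a listed start, and Gdf6, whose start is not listed, at a gene end. The share of all protein-coding genes that pass this rule with such peaks is not given here. The mean share of span covered was 21.7%, and 18.6% under either minimum.

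Reads over all 10 genes were 529, and 458 with the span alone, 482 with 2 kb flanks, 477 by nearest gene, 438 at the median score and 420 at 20 reads. The share of all protein-coding genes with a peak, 13.7%, was 9.77% with the span alone, 10.5% with 2 kb, 11.7% with 5 kb, 17.0% with 20 kb and 25.5% with 50 kb flanks. It was 10.8% by nearest gene, 8.92% at the median score and 6.77% at 20 reads. Of the 80 other pathway genes, 18 had a peak, 31 with 50 kb flanks and 11 at 20 reads.

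No paired analysis was possible because there is 1 ChIP library. The 4 weakly marked ligands rest on few reads, and the list holds no peak under 10 reads. The part of sequencing depth in this was not tested.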
